A study of Populus tomentosa with 12 samples.

Results

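LHY and TOC1 are core genes of the plant circadian clock, and 3 poplar genes of this kind were followed here: LHY1 (Potri.002G180800), LHY2 (Potri.014G106800) and TOC1 (Potri.015G061900). They were taken by their identifiers and are 3 of 42950 genes listed in each deposited file. The names were paired with the identifiers beforehand, since the files hold identifiers only. All 3 passed the filter on low counts in every comparison.

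Shoot and root samples came from Chinese white poplar (Populus tomentosa), multiplied in vitro and then moved into a liquid woody plant medium. The propagation medium held 1.5% sucrose and 1 mg/L of NAA, an auxin, for all of them. Shoots without Fe (0 µM), shoots with Fe (100 µM), roots without Fe (0 µM) and roots with Fe (100 µM) formed 4 groups of 3 libraries each. All plants are labelled as seedling stage and had shoots of about 10 cm when they were chosen, and all were raised at 24 °C under 16 h light days with a photon flux of 50 µmol per square metre and second. The labels' protocols call the replicates biological and do not say which plants went into each, so p-values measure the spread between these libraries. Neither the duration of the Fe treatment nor the hour of harvest is given in the sources used here.

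In Arabidopsis, LHY encodes a MYB-related transcription factor whose transcript peaks around dawn and whose protein represses evening genes, TOC1 among them. TOC1 encodes a pseudo-response regulator whose transcript peaks around dusk and whose protein represses LHY in turn, so that LHY and TOC1 transcripts run in opposite phase. In hybrid aspen, LHY genes are known to be needed for normal freezing tolerance, and in Arabidopsis Fe deficiency is known to lengthen the clock's period. The comparisons asked whether these transcripts differed between Fe supplies or between tissues, as a check of whether groups differed in apparent time of day or clock phase.

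Reads counted in genes numbered 5360670 to 6149779 per shoot library and 8663523 to 10886552 per root library. Of reads that were placed uniquely and well (in a gene, outside all genes or ambiguously), 49.5% to 50.0% fell outside all genes in shoot libraries, and 1.25% to 1.41% in root libraries. Root and shoot libraries also carry titles of different style, so a difference between tissues cannot be told apart from a difference between these library sets. No library pair held identical values. The labelled tissues were not checked against marker genes, since the files name none.

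LHY1 and LHY2 stood far higher in shoots than in roots, and TOC1 stood lower. Levels are given as CPM (counts scaled to a library total of 1000000 reads in genes), scaled by TMM over all 12 libraries. LHY1 reached 364, 459 and 351 CPM in the 3 shoot libraries without Fe, against 43.3, 47.8 and 35.6 CPM in the 3 root libraries without Fe. With Fe it reached 567, 757 and 397 CPM in shoots, against 28.8, 29.5 and 25.4 CPM in roots. Every shoot library lay above every root library at either Fe supply. In bulk tissue, fewer cells that express a gene and less RNA per cell cannot be told apart.

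LHY2, the other LHY copy, had the same order. It reached 663, 744 and 559 CPM in shoots without Fe, against 80.1, 91.2 and 61.7 CPM in roots without Fe. With Fe its level was 876, 1023 and 612 CPM in shoots, against 67.7, 57.0 and 54.6 CPM in roots. The tissues again did not overlap.

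TOC1 went the other way and was a low transcript in every group. Without Fe it had 10.4, 11.8 and 13.3 CPM in shoots, against 35.1, 22.2 and 22.2 CPM in roots. With Fe it had 6.34, 8.72 and 8.0 CPM in shoots, against 15.7, 10.6 and 10.9 CPM in roots. At each Fe supply every shoot library lay below every root library. Groups failed to overlap, with shoots higher, in 34.4% of all tested genes without Fe and 32.8% with Fe, and with shoots lower in 35.3% and 35.2%.

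**Figure D1:**
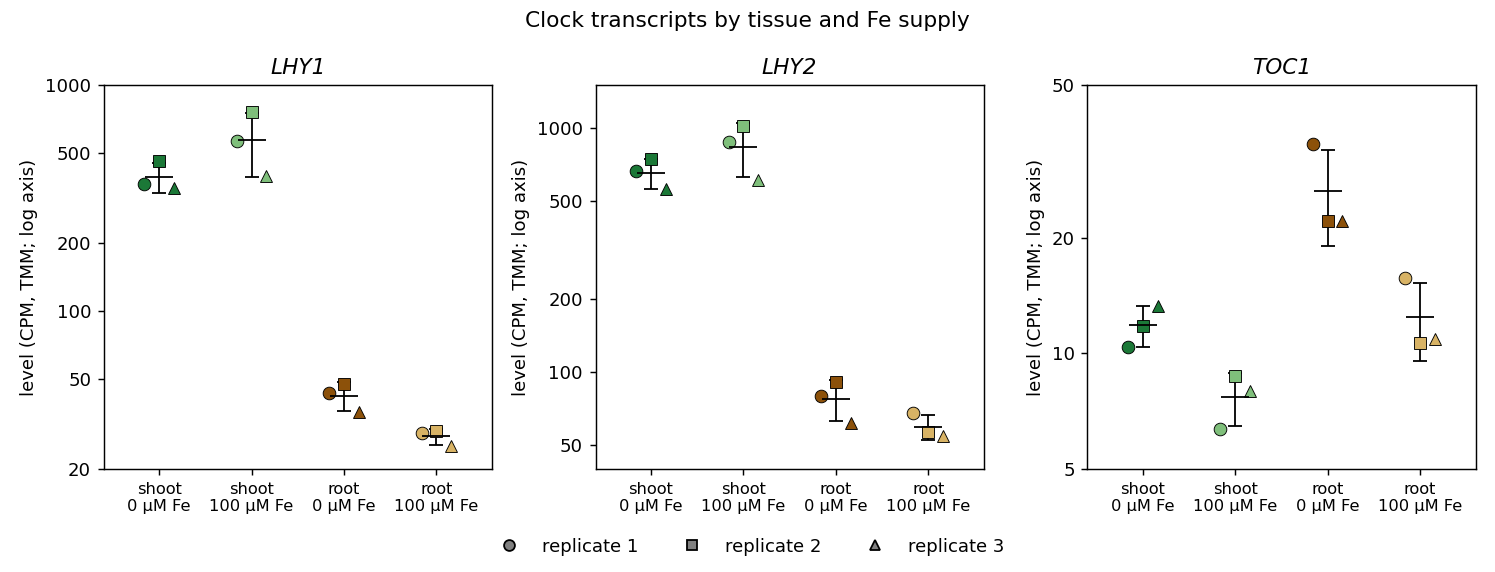
Level of LHY1, LHY2 and TOC1 in each of the 12 libraries, in CPM on log axes, by tissue and Fe supply. Points are libraries, with the replicate number shown by shape, and bars are the group mean and SD (n = 3). Shoot libraries lie above root libraries in LHY1 and LHY2 and, at the same Fe supply, below them in TOC1.

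Without Fe, LHY1 was 9.28-fold higher in shoots than in roots (95% interval 6.58 to 13.1; log2 fold change 3.21 ± 0.231, SE; edgeR adjusted p 4.03e-08). LHY2 was 8.44-fold higher in shoots (6.05 to 11.8; log2 fold change 3.08 ± 0.224, SE; edgeR adjusted p 4.56e-08). TOC1 was lower in shoots, with a log2 fold change of -1.16 ± 0.237 (SE; edgeR adjusted p 0.000722), so that the root level was 2.23 times the shoot level. This contrast also called 62.8% of the 25046 tested genes, 31.3% as higher and 31.6% as lower in shoots, so a call by itself did not set the clock genes apart. Only 7.82% of tested genes had a higher log2 fold change than LHY1 and 8.26% a higher one than LHY2, while 21.0% had a lower one than TOC1.

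With Fe, the tissue difference was larger in LHY1 and LHY2 and smaller in TOC1 by fitted value, though the change of the tissue difference with Fe supply did not pass its own test in any of them (edgeR adjusted p 0.0973, 0.311 and 0.651). LHY1 was 20.5-fold higher in shoots than in roots (95% interval 14.3 to 29.5; log2 fold change 4.36 ± 0.243, SE; edgeR adjusted p 2.48e-09), and LHY2 was 14.01-fold higher (9.93 to 19.8; edgeR adjusted p 5.90e-09). TOC1 was lower in shoots by a log2 fold change of -0.69 ± 0.252 (SE; edgeR adjusted p 0.0273). Here 63.9% of tested genes were called, 31.2% as higher and 32.7% as lower in shoots. A higher log2 fold change than that of LHY1 was found in 5.66% of tested genes, and than that of LHY2 in 6.92%. A lower one than that of TOC1 was found in 31.2%. By size, 60.7% of tested genes had a larger change than TOC1, and the median absolute log2 fold change was 0.963. The TOC1 call did not hold without root Fe-sufficient replicate 1 (log2 fold change -0.49, edgeR adjusted p 0.121), without shoot Fe-sufficient replicate 1 (-0.57, 0.101) or in a fit of these 6 libraries alone (-0.63, 0.0571); its adjusted p ran from 0.000833 to 0.121 over all alternatives. With total gene counts as library sizes the median of all genes was shifted to -0.37 without Fe and -0.55 with Fe, the share of calls that were higher in shoots was 36.8% and 31.4% (49.8% and 48.9% with TMM), and TOC1 with Fe had a log2 fold change of -1.17, which is -0.62 relative to the median of all genes.

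The balance of LHY and TOC1 was also described by the ratio of their counts inside a library, which needs no scaling. The ratio also shifts with the level of either gene at an unchanged phase, so it is no measure of phase by itself. The log2 ratio of LHY1 plus LHY2 counts to TOC1 counts, with 0.5 added to each, was 6.61, 6.66 and 6.09 in shoots without Fe, against 1.81, 2.65 and 2.13 in roots without Fe. With Fe it was 7.81, 7.66 and 6.96 in shoots, against 2.62, 3.02 and 2.87 in roots. The shoot libraries thus spanned 6.09 to 7.81 and the root libraries 1.81 to 3.02, with a wide gap between them. Gene lengths are not in the files, so the ratio does not give the relative abundance of the transcripts, and only its difference between libraries was read.

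The mean log2 ratio was 4.26 higher in shoots than in roots without Fe, a ratio 19.1 times as large, and 4.64 higher with Fe, a ratio 24.9 times as large. These differences exceeded the pooled SD between replicates, 0.373 and 0.350; no test was made of a score built from the chosen genes. No clock hour or phase was assigned to a library, because neither a harvest hour nor a reference time course of these tissues was used.

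**Figure D2:**
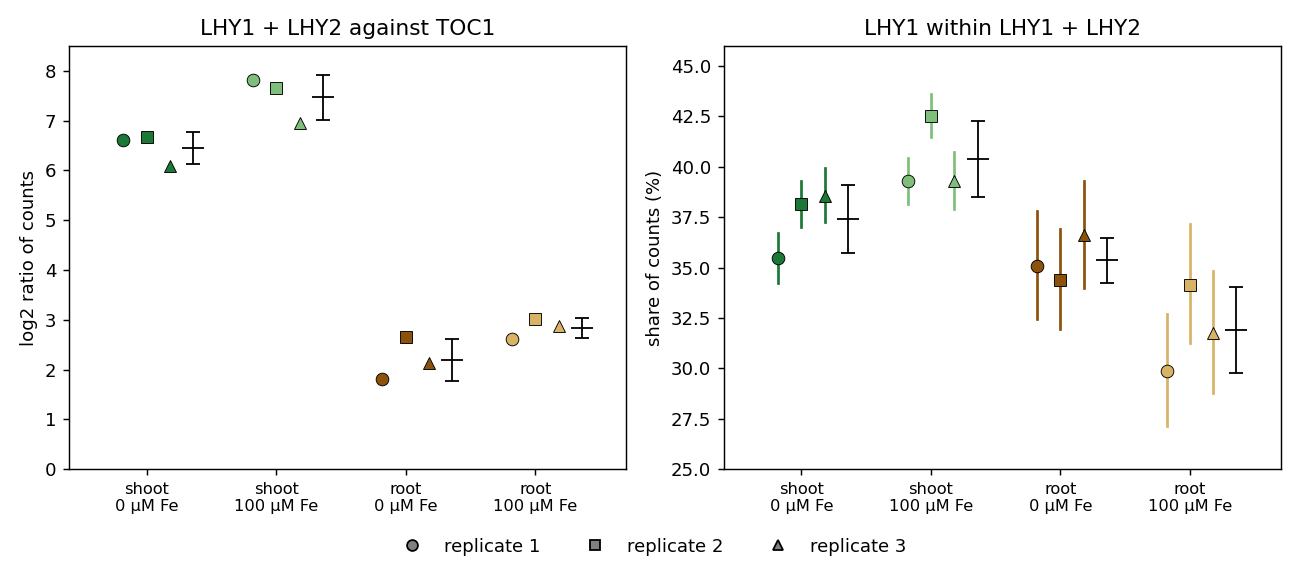
Left, log2 ratio of LHY1 plus LHY2 counts to TOC1 counts per library; right, share of LHY1 in the sum of LHY1 and LHY2 counts (%), on an axis from 25% to 46%, with Wilson 95% intervals as coloured lines. Points are libraries with the replicate number shown by shape, and black bars are the group mean and SD (n = 3). Shoot ratios lie at 6.09 to 7.81 and root ratios at 1.81 to 3.02.

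Fe supply was compared within each tissue, starting with roots. TOC1 had 35.1, 22.2 and 22.2 CPM in roots without Fe, against 15.7, 10.6 and 10.9 CPM in roots with Fe, and the groups did not overlap. The fitted level without Fe was 2.11 times the level with Fe (95% interval 1.42 to 3.13; log2 fold change 1.08 ± 0.245, SE), but the edgeR adjusted p over 23785 genes was 0.0996 and missed the threshold of 0.05. LHY1 had 43.3, 47.8 and 35.6 CPM without Fe, against 28.8, 29.5 and 25.4 CPM with Fe, again without overlap, a log2 fold change of 0.58 ± 0.145 (SE; edgeR adjusted p 0.122). LHY2 had a log2 fold change of 0.36 ± 0.166 (SE; edgeR adjusted p 0.352), and its groups overlapped.

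None of the 3 genes was called in roots by edgeR, where 0.563% of all tested genes were called, while groups failed to overlap with the Fe-deficient roots higher in 10.2% of tested genes. Unadjusted p under 0.05 was reached by LHY1 and TOC1 and by 15.2% of all tested genes. The median absolute log2 fold change over all tested genes was 0.226, and 3.95% of genes had a larger one than TOC1, 16.1% a larger one than LHY1 and 31.5% a larger one than LHY2. The calls depended on the tool. DESeq2 called TOC1 (log2 fold change 1.08, adjusted p 0.00656) and LHY1 (0.58, adjusted p 0.0447), among 1109 genes that it called in roots. An edgeR fit of all 12 libraries called TOC1 (adjusted p 0.0274), among 508 genes called. The main edgeR test called 134 genes. Over all alternatives the adjusted p ran from 0.00656 to 0.274 for TOC1 and from 0.0447 to 0.317 for LHY1.

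In shoots, TOC1 was again at a higher value without Fe, and LHY1 and LHY2 were at lower values. TOC1 had 10.4, 11.8 and 13.3 CPM in shoots without Fe, against 6.34, 8.72 and 8.0 CPM in shoots with Fe. These groups did not overlap, as in 7.11% of all tested genes with the Fe-deficient shoots higher. The log2 fold change of 0.61 ± 0.252 (SE; 95% interval 0.06 to 1.16) did not pass the test (edgeR adjusted p 0.457). LHY1 had a log2 fold change of -0.56 ± 0.232 (SE; 95% interval -1.06 to -0.05; edgeR adjusted p 0.470) and LHY2 one of -0.36 ± 0.212 (SE; 95% interval -0.82 to 0.11; edgeR adjusted p 0.706). In both LHY genes the groups overlapped, because Fe-sufficient replicate 3 lay within the range of the Fe-deficient libraries.

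None of the 3 genes was called in shoots, where 1.16% of all tested genes were called; LHY1 and TOC1 had an unadjusted p under 0.05, as had 9.09% of all tested genes. DESeq2 called none of the 3 in shoots either, with adjusted p of 0.340 for LHY1, 0.817 for LHY2 and 0.674 for TOC1. The intervals still allow differences of more than 2-fold for TOC1 and LHY1, so the data do not show that Fe supplies are alike in these genes.

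TOC1 counts were few in shoots. Its libraries held 58, 67 and 74 counts in shoots without Fe, against 30, 42 and 36 counts in shoots with Fe. The coefficient of variation between replicates was 12.1% without Fe and 15.9% with Fe, close to the 12.3% and 16.7% that counting error alone gives at these depths. In roots, with 222 to 343 counts without Fe and 122 to 170 counts with Fe, TOC1 varied by 28.2% and 23.0%, against 5.93% and 8.502% from counting error. Counting error covers the drawing of reads only. The SE of the TOC1 log2 fold change was much alike in the tissues, 0.252 in shoots and 0.245 in roots.

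The LHY to TOC1 ratio took lower values without Fe in shoots. The log2 ratio averaged 6.46 ± 0.318 in Fe-deficient shoots and 7.47 ± 0.452 in Fe-sufficient shoots (SD, n = 3 each), a difference of -1.02, and the groups did not overlap. In roots it averaged 2.197 ± 0.421 without Fe and 2.83 ± 0.204 with Fe (SD, n = 3 each), a difference of -0.64, and the groups overlapped, since Fe-deficient replicate 2 at 2.65 lay above Fe-sufficient replicate 1 at 2.62. Both differences carry the same sign, while the genes behind them did not: in shoots the fitted LHY values were lower and that of TOC1 higher without Fe, and in roots all 3 fitted values were higher without Fe. The Fe differences of the ratio were a small part of the tissue differences of 4.26 and 4.64.

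The difference of the Fe response between tissues was tested directly. For LHY1 the shoot response minus the root response was -1.15 ± 0.303 on the log2 scale (SE; 95% interval -1.80 to -0.50; edgeR adjusted p 0.0973), for LHY2 -0.73 ± 0.294 (SE; -1.36 to -0.10; edgeR adjusted p 0.311), and for TOC1 -0.47 ± 0.346 (SE; -1.21 to 0.27; edgeR adjusted p 0.651). None passed, in a contrast that called 1.25% of 25046 tested genes; LHY1 and LHY2 had an unadjusted p under 0.05, as had 12.4% of all tested genes. LHY1 was called by DESeq2 (-1.18, adjusted p 0.0174) and by edgeR without shoot Fe-sufficient replicate 3 (-1.35, adjusted p 0.0324), with adjusted p from 0.0174 to 0.221 over all alternatives. For this contrast DESeq2 called 855 genes and edgeR without that replicate 238, against 313 in the main test.

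**Figure D3:**
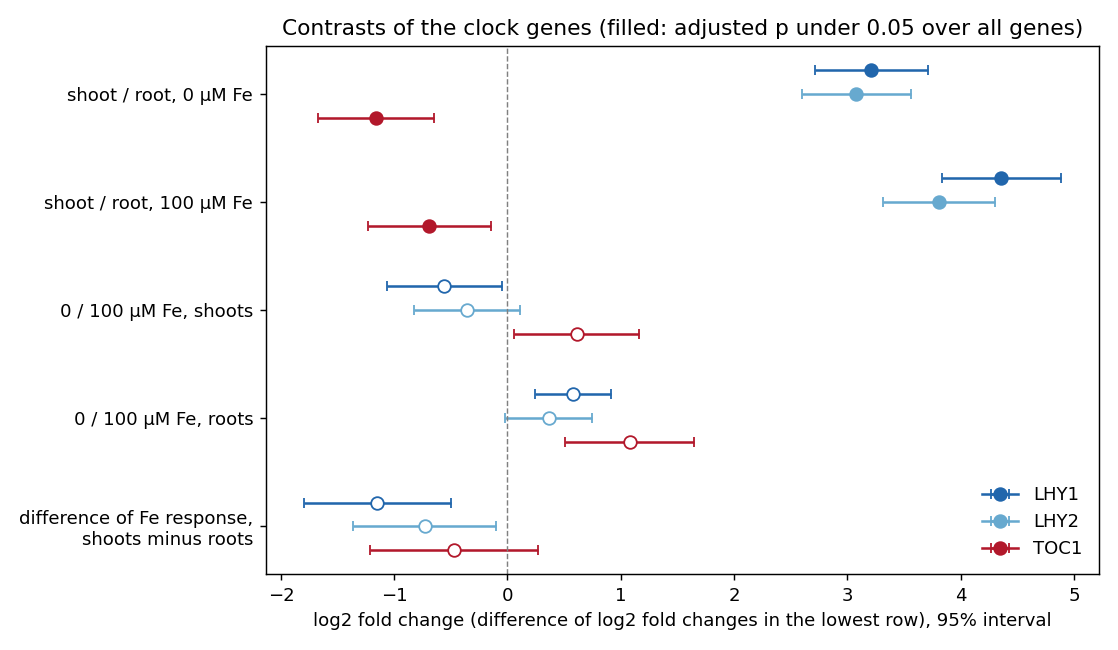
Log2 fold changes of LHY1, LHY2 and TOC1 in the tissue and Fe contrasts, and the difference of the Fe response between tissues, by edgeR with 95% intervals. Filled points passed an adjusted p of 0.05 over all genes tested; they are the 6 points of the tissue contrasts, and the 9 other points are open.

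By group mean, LHY1 stood at 392 CPM in shoots without Fe, 574 CPM in shoots with Fe, 42.2 CPM in roots without Fe and 27.9 CPM in roots with Fe. Ordered from high to low, the Fe-sufficient shoots came before the Fe-deficient shoots, whose range they overlapped, then came the Fe-deficient roots and last the Fe-sufficient roots, without overlap between these neighbours. LHY2 had the same order of groups, at 656 CPM in shoots without Fe, 837 CPM in shoots with Fe, 77.7 CPM in roots without Fe and 59.7 CPM in roots with Fe, with overlap between the Fe supplies in either tissue. TOC1 stood at 11.8 CPM in shoots without Fe, 7.69 CPM in shoots with Fe, 26.5 CPM in roots without Fe and 12.4 CPM in roots with Fe. Its order was Fe-deficient roots, Fe-sufficient roots, Fe-deficient shoots and Fe-sufficient shoots, and the middle neighbours overlapped.

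The spread between replicates of the clock genes lay near that of the median gene. The genes compared were not matched for level, so this does not show the spread to be usual for genes of like abundance. Pooled over the 4 groups, the SD of log2 CPM between replicates was 0.283 for LHY1, 0.272 for LHY2 and 0.284 for TOC1, against a median of 0.318 over the 25046 genes tested in all 12 libraries; 42.9%, 40.2% and 43.0% of those genes had a smaller SD. Single groups lay above the median gene of that group: the Fe-sufficient shoots for LHY1 (SD 0.467) and LHY2 (SD 0.379), where the median was 0.321, and for TOC1 the roots without Fe (SD 0.380, median 0.246) and with Fe (SD 0.309, median 0.225). LHY2 in Fe-deficient roots, at 0.286, was also above that median. In Fe-sufficient shoots replicate 2 was the highest and replicate 3 the lowest library in both LHY genes.

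The LHY copies moved together from library to library. In the 6 shoot libraries, Pearson's r of log2 CPM was 0.967 (exact permutation p 0.00417, two-sided) and Spearman's rho 0.943 (exact permutation p 0.0167). Without the 2 libraries farthest from the median of LHY1, r was 0.820 over the remaining 4. This was the only one of 6 planned relations that could be given. In the others the Fe groups did not overlap in at least 1 of the genes. The adjustment was planned over 6 relations but made over this 1, so the p-values are unchanged. The 6 shoot libraries pool both Fe supplies, so r and its p-value also take in any difference between them. LHY1 and LHY2 are known as duplicate copies, and reads that aligned to several places were not counted in genes, so reads common to both copies may be missing from both rows.

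The part of the LHY counts that LHY1 made up was then described, without a test. Its share of LHY1 plus LHY2 counts was 35.5%, 38.1% and 38.6% in shoots without Fe, against 39.3%, 42.5% and 39.3% in shoots with Fe. In roots it was 35.1%, 34.4% and 36.6% without Fe, against 29.9%, 34.1% and 31.7% with Fe. The Fe groups did not overlap in either tissue, with a mean difference of -2.99 points in shoots and 3.44 points in roots (without Fe minus with Fe). Between tissues, shoots and roots without Fe overlapped, with a mean difference of 2.04 points, and shoots and roots with Fe did not, with one of 8.47 points. The Wilson 95% interval of a single share was at widest 28.8% to 34.9% (root Fe-sufficient replicate 3). Intervals of some libraries of opposing Fe groups overlapped. Root replicate 2 had 31.9% to 36.9% without Fe and 31.3% to 37.1% with Fe. Shoot Fe-deficient replicate 3 had 37.2% to 39.9%, against 38.1% to 40.5% in shoot Fe-sufficient replicate 1. How often the shares of other gene pairs separate was not tested. In each of the Fe and tissue contrasts LHY1 had the larger fitted change of the copies in size.

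Patterns over all libraries were then compared with those of other genes, on log2 CPM with the mean of each tissue removed. Among 15347 other genes of at least 10 CPM on average, LHY1 had rank 2 in likeness to LHY2 (Pearson's r 0.939 over 12 libraries), and LHY2 had rank 4 for LHY1. A value of at least 0.9 was found in 25 genes for LHY1, 12 for LHY2 and 2 for TOC1, and one of at most -0.9 in 18, 10 and 1. TOC1 had an r of 0.262 with LHY1 (rank 4801) and 0.232 with LHY2 (rank 5163). By fitted value LHY1 and LHY2 ran opposite to TOC1 between Fe supplies in shoots (-0.56 and -0.36 against 0.61 on the log2 scale). In roots they ran with it (0.58 and 0.36 against 1.08), so an r over both tissues describes neither. With the mean of each of the 4 groups removed in place of the tissue mean, r was 0.922 between the LHY copies. LHY1 then had rank 8 for LHY2, and LHY2 had rank 26 for LHY1. Values of at least 0.9 were found in 51 genes for LHY1, 23 for LHY2 and 6 for TOC1. TOC1 then had an r of 0.136 with LHY1 and 0.170 with LHY2.

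The genes most like LHY1 were Potri.005G050700 (r 0.961) and Potri.001G025100 (r 0.952), the gene most like LHY2 was Potri.014G125600 (r 0.955), and those most like TOC1 were Potri.002G240601 (r 0.924) and Potri.010G003200 (r 0.912). Removing the mean of each of the 4 groups instead gave, in the same order, 0.919 and 0.933 for LHY1 and 0.929 for LHY2. For TOC1 it gave only 0.754 and 0.535. Other genes then ranked first for each clock gene. Potri.005G050700 had 182 to 212 CPM in shoots without Fe and 196 to 275 CPM in shoots with Fe, and 46.1 to 58.0 CPM in roots without Fe and 35.4 to 37.7 CPM in roots with Fe. It shared with LHY1 the order of the 4 groups, at a narrower span between tissues. Potri.010G003200 had 304 to 323 CPM in shoots without Fe and 225 to 258 CPM in shoots with Fe, and 65.1 to 71.9 CPM in roots without Fe and 34.1 to 47.0 CPM in roots with Fe. It stood higher without Fe in both tissues without overlap, as TOC1 did, but unlike TOC1 it was higher in shoots than in roots, a difference that the removal of tissue means hides. None of the 5 genes was called for Fe in either tissue (lowest edgeR adjusted p 0.0677, for Potri.010G003200 in roots). These correlations are descriptions over libraries that share their scaling and group structure, and the likest of many genes is high by selection.

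**Figure D4:**
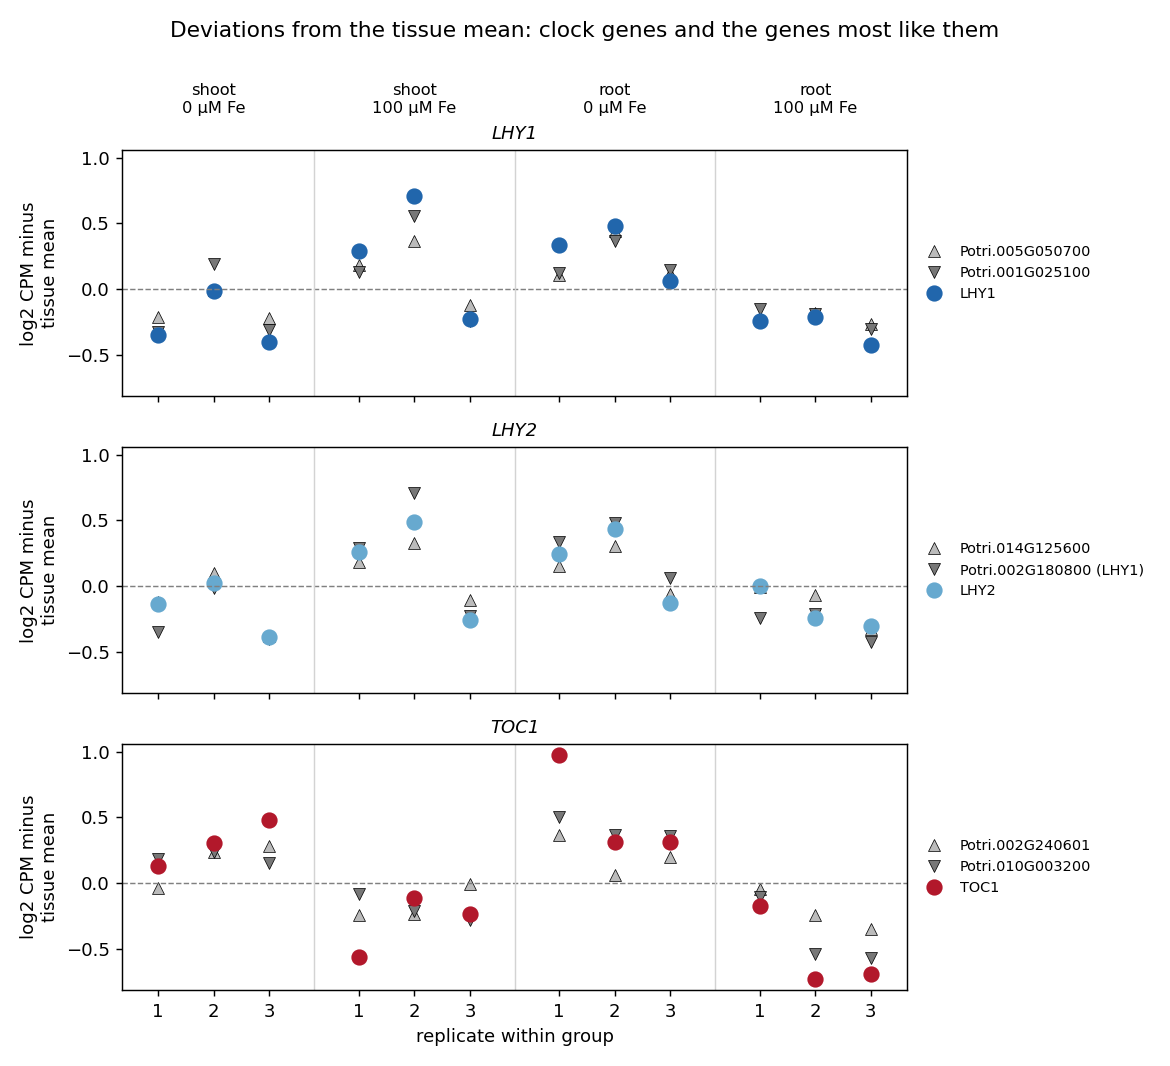
Deviation of log2 CPM from the mean of the tissue, for each of the 12 libraries, of LHY1, LHY2 and TOC1 (coloured circles) and the genes most like each (grey triangles). LHY1 and LHY2 share their high libraries, among them shoot Fe-sufficient replicate 2 and root Fe-deficient replicate 2, while TOC1 is above 0 in the 6 Fe-deficient and below 0 in the 6 Fe-sufficient libraries. TOC1 was called for Fe in neither tissue (edgeR adjusted p 0.0996 in roots and 0.457 in shoots). How many other genes split in this way in both tissues was not counted.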

How the data were processed

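Each library has 1 deposited file of raw read counts per gene, not normalised by the authors. The submitters' processing notes name HTSeq 2.2.1, HISAT2 2.0.5, Trimmomatic 0.36 and edgeR 3.16.5; how they were set, which genome build and annotation were used and whether counting was stranded were not stated in these notes or the labels. The 5 rows of reads given to no gene, 58.3% to 73.1% of all reads listed in a library, stayed out of library sizes and tests. Groups came from the labels: shoots labelled Fe-deficient are titled WT and those labelled Fe-sufficient CK, and the label was followed. Root replicates were numbered in accession order and shoot replicates as in their titles.

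Fe supplies were compared within each tissue, and tissues and responses in 1 fit of all 12 libraries, with the quasi-likelihood test of edgeR 4.0.16 (R 4.3.3), TMM and filterByExpr, with p-values adjusted by Benjamini-Hochberg over all genes tested and a threshold of 0.05. Intervals used the moderated degrees of freedom. The code was checked on simulated data. DESeq2 1.42.0, other scalings, filters and fits, LHY1 and LHY2 as a summed row, and omissions of each replicate were alternatives. Correlations used exact permutations (scipy 1.17.1). Besides the 3 clock genes, genes were named by likeness: the 2 with the highest Pearson's r to each, among genes of at least 10 CPM on average. The genes and lists were chosen with earlier results of these data known. None of the gene identifiers matched the 60139 genes of the reference table (P. tomentosa assembly PTv2), so other clock genes, coordinates and sequences were not used here. The identifiers have the form of P. trichocarpa gene models, while the plants are P. tomentosa. Whether this affects the LHY1 share or the count ratios was not tested.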

Additional observations from a re-analysis of the deposited data

How the results depend on the processing

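Results were counted per gene and contrast, with the summed LHY row counted for each LHY gene. Directions of the 3 clock genes were the same in all 144 results with a replicate omitted and all 103 results of other settings. Calls changed in 3 of the former and 5 of the latter. DESeq2 gave LHY1 in roots 0.58, TOC1 in roots 1.08 and LHY1 for the difference of Fe response -1.18, all past the threshold, and the fit of all 12 libraries gave TOC1 in roots 1.09, past it too; the fit of the 6 Fe-sufficient libraries gave TOC1 -0.63 for shoots over roots, no longer past it. Omitting a replicate gave -1.35 to -0.89 for the difference in LHY1 and -0.80 to -0.49 for TOC1 between tissues with Fe. Fe responses past no threshold moved by over 1.5 times in part: omissions gave -0.77 to -0.31 for LHY1 and -0.54 to -0.19 for LHY2 in shoots, 0.24 to 0.50 for LHY2 in roots and -0.67 to -0.22 for the difference in TOC1, and total gene counts as library sizes gave -0.36 for LHY1 and -0.16 for LHY2 in shoots and -0.30 for the difference in TOC1. The count ratios and the LHY1 to LHY2 correlation moved by less than the spread or kept their call under every alternative run. With total gene counts as library sizes the median of all genes was 0.19 for Fe in shoots and 0.158 for the difference of responses. Relative to that median, LHY1 and LHY2 in shoots were at -0.545 and -0.345, against -0.550 and -0.351 with TMM. The difference in TOC1 was at -0.462, against -0.464 with TMM. The cause of the changes listed here was not tested.

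The background counts moved more. Roots had 134 calls, against 1109 with DESeq2, 508 in the fit of all 12 libraries and 357 with no filter; shoots had 252, against 517 with DESeq2 and 437 with no filter; the difference of responses had 313, against 855 with DESeq2. Omissions gave 0 to 71, 64 to 571 and 104 to 264 calls; where edgeR called 0 (without root Fe-sufficient replicate 2), 2912 genes had an unadjusted p under 0.05 and DESeq2 called 595. With the number in the shoot titles as a replicate block, 134 genes were called in shoots and 166 for the difference, and no clock gene changed its call. Deviations of same-numbered shoots from their group means correlated at -0.16, 0.0026 and 0.12, and those of differently numbered shoots at -0.23 to 0.20. Deviations from means of 3 libraries constrain one another, so these values cannot decide whether the numbers pair the libraries. TOC1 had the fewest reads of the 3 genes, 30 to 74 counts a shoot library; a limit set by depth was not tested.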
